A study of Nothobranchius furzeri with 18 samples.

Results

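Expression of 3 genes, gadd45g, txnip and pim3, was described across wild-type cells and 2 vgll3 mutants of Nothobranchius furzeri, the turquoise killifish, whose short life makes it a model of ageing. They are 3 of the 25099 genes in the deposited count table and were found by their names. They were chosen by their measured differences between the exon 3 mutant and wild type (WT) in earlier results of these data, and pim3 also by its difference in the exon 1 mutant. The difference between the exon 3 mutant and WT, and that of pim3 between the exon 1 mutant and WT, are therefore given as a description, without a test. For gadd45g and txnip the exon 1 mutant is set against the same WT cultures, and both mutants are compared using the same exon 3 mutant cultures, so those comparisons are not independent of the choice. For pim3 the cultures of both mutants entered the choice.

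The cells were primary fibroblasts grown from killifish tails and harvested close to confluence. Cells of the exon 1 mutant carried a homozygous mutation in exon 1 of vgll3, a transcription cofactor of the vestigial-like family, and those of the exon 3 mutant a homozygous mutation in its exon 3. WT cells carried neither, and no agent was applied to any group. Library names hold the letters KD where exon 1 was mutated, but the word null where exon 3 was. Whether the mutations differ in their effect on vgll3 function was not tested. The 18 polyA RNA libraries, 6 per genotype, were counted as 10 cultures. Of these, 3 were exon 1 mutant (numbered 3, 4 and 6), 3 were exon 3 mutant (numbered 1, 3 and 4) and 4 were WT (F1, F9, F4 and FM). Libraries A and B of a culture are technical replicates per the series' design text, and were summed on that basis. WT F1 and F9 carry no such letter and were taken as separate cultures with 1 library each. That is an assumption, so n = 4 for WT depends on it. The labels do not say whether each culture came from its own fish, nor give the fish's age, sex or strain, so the p-values measure the spread between these cultures.

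The growth arrest and DNA damage 45 (GADD45) proteins are small stress-induced proteins. They bind the kinase MAP3K4, which signals to p38 and JNK, and in mammals they also act in growth arrest and DNA repair. Txnip is an alpha-arrestin that binds thioredoxin and lowers glucose uptake, and its gene is switched on in mammals by the glucose-sensing factor MondoA with its partner Mlx. Pim3 is a serine/threonine kinase of the PIM family, whose genes are induced by cytokines through STAT factors and which favours cell survival and protein synthesis. All 3 roles are best known from mammals.

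Library totals ran from 15236208 to 28146560 counts, and all 3 genes passed the filter on low counts. The mutated gene, vgll3, stood at 262 to 333 CPM (counts scaled to a common, TMM-adjusted library size) in the WT cultures, 206 to 266 CPM in exon 1 mutants and 99.9 to 119 CPM in exon 3 mutants. The ranges of WT and exon 1 mutant cultures overlapped, and the exon 3 mutant lay below both. Of 13 fibroblast markers, 10 had a mean of at least 1 CPM, with col1a1a at 1452 to 3938 CPM and pdgfra at 101 to 203 CPM, whereas vim did not exceed 0.603 CPM and both postn genes were near 0. Their sum ran from 7715 to 9528 CPM in WT, with wider, overlapping ranges in the mutants. These were 6834 to 14073 CPM in exon 1 mutants and 7160 to 15760 CPM in exon 3 mutants. Summed over their lists, leukocyte and muscle markers did not exceed 5.24 CPM and 5.03 CPM, with ptprc at most 0.218 CPM and myod1 at most 0.0656 CPM. Endothelial markers summed to 7.10 to 26.6 CPM, most of it cdh5 at 6.49 to 25.5 CPM, and chondrocyte markers to 1.05 to 45.9 CPM, most of it col2a1b. Pigment cell markers summed to 17.7 to 29.4 CPM in WT and exon 1 mutant cultures and reached 133 CPM in exon 3 mutant culture 3, where dct stood at 113 CPM. In the same culture Schwann cell and neuron markers summed to 20.1 CPM. The summed level of 8 keratinocyte markers ran from 6109 to 6754 CPM in WT, 8533 to 8982 CPM in exon 1 mutants and 7384 to 11970 CPM in exon 3 mutants, so that both mutants lay above WT. Nearly all of that sum was krt8, at 6098 to 11956 CPM. Of all genes, 4.92% had exon 1 mutant cultures wholly above WT and 6.99% had exon 3 mutant cultures wholly above WT. Of the other keratinocyte markers, tp63 stood at 1.79 to 4.01 CPM, epcam at 0.653 to 3.78 CPM and evpl at 1.32 to 7.92 CPM, while krt5, cdh1 and both cldn1 genes did not exceed 0.124, 0.610 and 1.00 CPM. The sum of 6 osteoblast markers was 447 to 1750 CPM in WT, 406 to 2303 CPM in exon 1 mutants and 1565 to 8372 CPM in exon 3 mutants, with culture 3 of the exon 3 mutant at the top. The part of these markers in the differences below was not tested. In RNA from whole cultures, fewer cells expressing a gene and less of its RNA per cell cannot be told apart.

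The labels pair WT libraries F4A with F4B and FMA with FMB, but over 11464 genes with a mean above 5 CPM other pairs were closer. The median absolute log2 difference was 0.115 between F4B and FMA, 0.133 between F1 and F4A and 0.162 between F9 and FMB, against 0.240 and 0.208 between the labelled partners of F4 and FM. The labelled cultures are used below. The 6 WT libraries were also summed as these 3 pairs. The log2 fold changes in the exon 1 and exon 3 mutants were then -0.74 and -1.19 for gadd45g. They were 0.60 and 0.78 for txnip and -0.81 and -0.99 for pim3, each close to the value given below. In the exon 1 mutant edgeR's adjusted p, from the test described below, was then 0.426 for gadd45g and 0.294 for txnip. With the labelled cultures it was 0.107 and 0.129.

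Gadd45g was highest in WT, intermediate in the exon 1 mutant and lowest in the exon 3 mutant. The WT cultures stood at 39.2 (F1), 48.8 (F9), 38.5 (F4) and 32.9 CPM (FM), a mean of 39.9 ± 6.58 CPM (SD, n = 4). The exon 1 mutant cultures stood at 20.1 (culture 3), 25.0 (culture 4) and 24.6 CPM (culture 6), a mean of 23.2 ± 2.71 CPM (SD, n = 3). The exon 3 mutant cultures stood at 15.4 (culture 1), 17.6 (culture 3) and 17.9 CPM (culture 4), a mean of 17.0 ± 1.35 CPM (SD, n = 3). The 3 ranges of cultures did not overlap, which for WT and the exon 3 mutant bears on the difference gadd45g was chosen by. On the lower side, 6.87% of all genes did not overlap in the exon 3 mutant against WT. In the exon 1 mutant against WT it was 4.37%, and between the mutants 5.04%. Single libraries did overlap for gadd45g in both of these comparisons with the exon 1 mutant, as given below. The log2 fold change of gadd45g against WT was -1.23 ± 0.15 (SE) in the exon 3 mutant, a level 2.35-fold lower. In the exon 1 mutant it was -0.78 ± 0.14, or 0.583 of the WT level. Its spread over cultures, as a coefficient of variation, was 16.5% in WT, 11.7% in the exon 1 mutant and 7.94% in the exon 3 mutant, against 2.84%, 3.29% and 3.71% from counting alone.

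Txnip went the other way, lowest in WT. Its WT cultures stood at 36.5 (F1), 37.8 (F9), 35.5 (F4) and 31.7 CPM (FM), a mean of 35.4 ± 2.63 CPM (SD, n = 4). The exon 1 mutant cultures stood at 51.7 (culture 3), 48.5 (culture 4) and 59.1 CPM (culture 6), a mean of 53.1 ± 5.44 CPM (SD, n = 3). The exon 3 mutant cultures stood at 57.4 (culture 1), 68.6 (culture 3) and 54.6 CPM (culture 4), a mean of 60.2 ± 7.42 CPM (SD, n = 3). Every mutant culture lay above every WT culture, and the ranges of both mutants overlapped. Such a higher range without overlap was seen for 6.99% of all genes in the exon 3 mutant and 4.92% in the exon 1 mutant. Txnip was chosen by its difference in the exon 3 mutant. Its log2 fold change against WT was 0.77 ± 0.12 in the exon 3 mutant, a 1.70-fold higher level, and 0.59 ± 0.12 in the exon 1 mutant, 1.5-fold higher. WT F1, F9 and F4 were close together for txnip, and the coefficient of variation was 7.43% in WT, 10.2% in the exon 1 mutant and 12.3% in the exon 3 mutant.

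Pim3 was lower in both mutants than in WT. Its WT cultures stood at 21.7 (F1), 18.4 (F9), 24.1 (F4) and 22.2 CPM (FM), a mean of 21.6 ± 2.36 CPM (SD, n = 4). The exon 1 mutant cultures stood at 13.8 (culture 3), 12.3 (culture 4) and 11.5 CPM (culture 6), a mean of 12.5 ± 1.15 CPM (SD, n = 3). The exon 3 mutant cultures stood at 10.1 (culture 1), 10.5 (culture 3) and 12.7 CPM (culture 4), a mean of 11.1 ± 1.39 CPM (SD, n = 3). The lowest WT culture, F9, lay above the highest mutant culture, and the ranges of both mutants overlapped. A lower range without overlap was seen for 6.87% of all genes in the exon 3 mutant and 4.37% in the exon 1 mutant. Pim3 was chosen by its differences in both. Its log2 fold change was -0.96 ± 0.13 in the exon 3 mutant, 1.95-fold lower than WT, and -0.79 ± 0.13 in the exon 1 mutant, 1.73-fold lower. With 5873 counts over all libraries it had the fewest counts of the 3 genes.

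**Figure D1:**
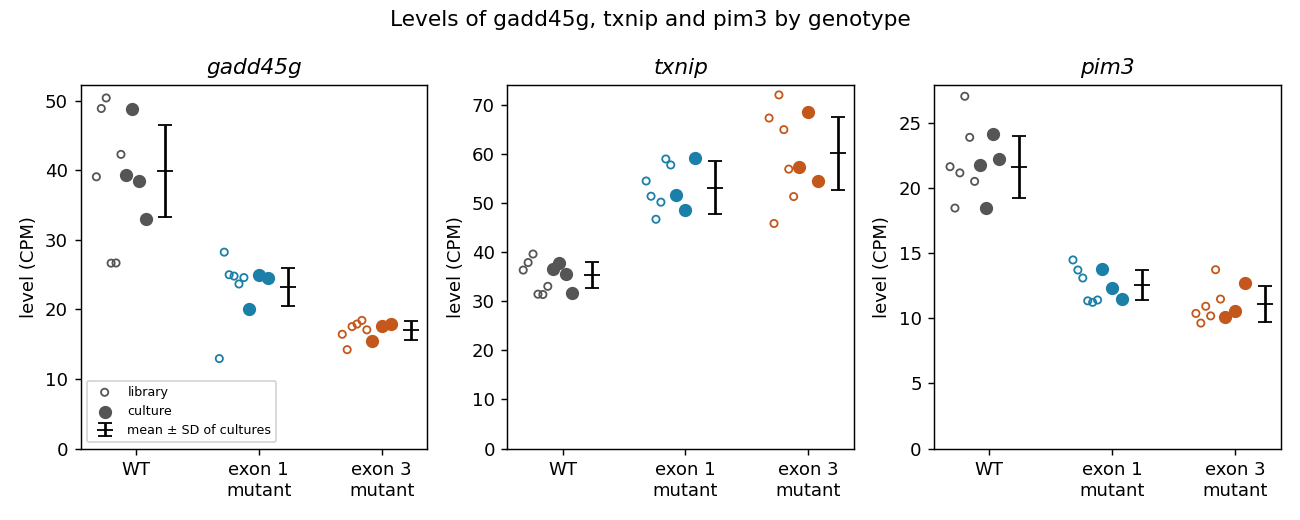
Level (CPM, linear axis from 0) of gadd45g, txnip and pim3 in WT, the exon 1 mutant and the exon 3 mutant. Open circles are libraries, filled circles are cultures and the crossed bar is the mean ± SD of cultures (n = 4, 3 and 3). The cultures of each mutant lie below those of WT for gadd45g and pim3 and above them for txnip. All 3 genes were chosen by their differences from WT.

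Neither gadd45g nor txnip passed the test of exon 1 mutant against WT cultures, and pim3 is not tested there. In edgeR's quasi-likelihood test over 16354 genes, with Benjamini-Hochberg adjustment and 0.05 as the threshold, the adjusted p was 0.107 for gadd45g and 0.129 for txnip, where the test called 0.159% of genes. The unadjusted p-values were 0.000256 and 0.000485 in the same order, and 8.48% of all genes had an unadjusted p below 0.05. DESeq2 called both, at adjusted p 0.00029 for gadd45g and 0.00173 for txnip, where it called 1.55% of genes. The WT cultures entered the choice of both genes, so these tests are not independent of it and lean towards a call. Gadd45g and txnip had cultures that did not overlap between the exon 1 mutant and WT, as had 4.37% of all genes on the lower side and 4.92% on the higher side. In the exon 3 mutant against WT the test called 0.238% of genes and DESeq2 3.1%, and 6.87% and 6.99% of genes had cultures that did not overlap on the lower and the higher side. Nothing is read from the 3 genes' calls or ranges there, nor from those of pim3 in the exon 1 mutant.

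None of the 3 genes passed the test between the mutants, which uses the exon 3 mutant cultures that entered the choice. For pim3 the exon 1 mutant cultures entered the choice too. In edgeR's test of the exon 3 mutant against the exon 1 mutant, the log2 fold change of gadd45g was -0.45 ± 0.15, with a 95% interval from -0.79 to -0.11, an unadjusted p of 0.0136 and an adjusted p of 0.482. Its cultures did not overlap between the mutants, which held for 5.04% of all genes on the lower side and 6.18% on the higher side. For txnip the difference was 0.18 ± 0.13, with an interval from -0.10 to 0.46 and an adjusted p of 0.702. For pim3 it was -0.18 ± 0.14, with an interval from -0.48 to 0.13 and an adjusted p of 0.726. The intervals of txnip and pim3 include 0 and reach to differences as large as 0.46 and 0.48 on the log2 scale, so they do not show that the mutants were alike. Of all genes, edgeR called 0.0122% between the mutants and DESeq2 1.07%, and DESeq2 called 0 of the 3.

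**Figure D2:**
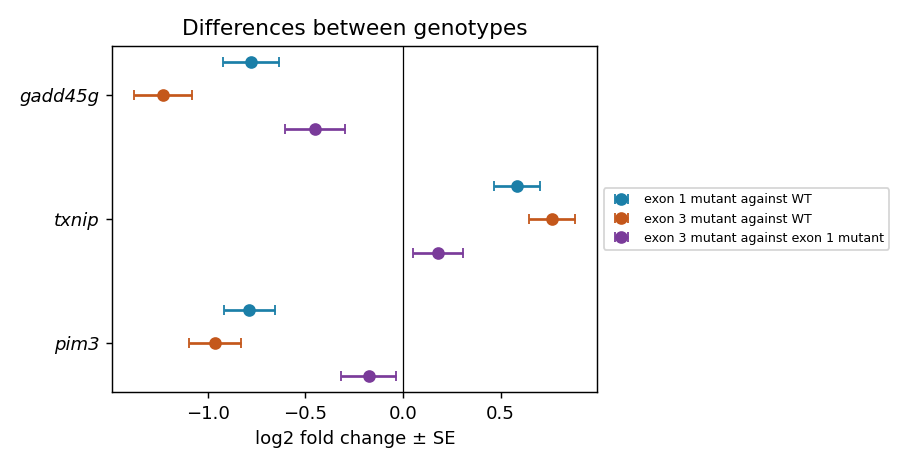
Log2 fold change with its standard error (horizontal bars) for gadd45g, txnip and pim3 in the exon 1 mutant against WT, the exon 3 mutant against WT and the exon 3 mutant against the exon 1 mutant, from 1 fit over 10 cultures. Both comparisons with WT share the WT cultures; the values between the mutants, -0.45, 0.18 and -0.18, are the smallest for each gene.

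Libraries A and B of a culture did not always give the same gadd45g level. In exon 1 mutant culture 3 it was 12.9 CPM in library 3A and 28.2 CPM in library 3B, a log2 difference of 1.13, or 10.3 times its counting error. In WT F4 it was 50.4 CPM in library A and 26.6 CPM in library B, and in WT FM it was 26.7 and 42.3 CPM. The lowest WT libraries therefore fell below the highest exon 1 mutant library, 28.2 CPM, and library 3A lay below every exon 3 mutant library, which ran from 14.2 to 18.4 CPM. These were also the cultures whose partners differed most over the 11464 genes, with a median absolute log2 difference of 0.527 in exon 1 mutant culture 3, 0.240 in F4 and 0.208 in FM, against 0.0977 to 0.144 in the others. In the other 5 cultures the partners' gadd45g levels were within 0.21 on the log2 scale. Between any WT libraries, also of different cultures, the median absolute log2 difference was at most 0.262 (F9 and F4B). That is below the 0.527 between the partners of exon 1 mutant culture 3. Whether partners are technical replicates was not tested, and the counting as 10 cultures and all p-values rest on it.

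In exon 1 mutant culture 3, WT F4 and WT FM the partners were closer for txnip and pim3 than for gadd45g. Txnip ran from 31.4 to 39.6 CPM in the WT libraries, 46.7 to 59.0 CPM in exon 1 mutants and 45.8 to 72.0 CPM in exon 3 mutants. Its widest pair was exon 3 mutant culture 1, with 67.3 CPM in library A and 45.8 CPM in library B, a log2 difference of -0.55 that was larger than in 97.2% of the 11464 genes in that culture. Pim3 ran from 18.4 to 27.0 CPM in WT, 11.2 to 14.5 CPM in exon 1 mutants and 9.63 to 13.7 CPM in exon 3 mutants, and its widest pair, WT F4, differed by 0.35.

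**Figure D3:**
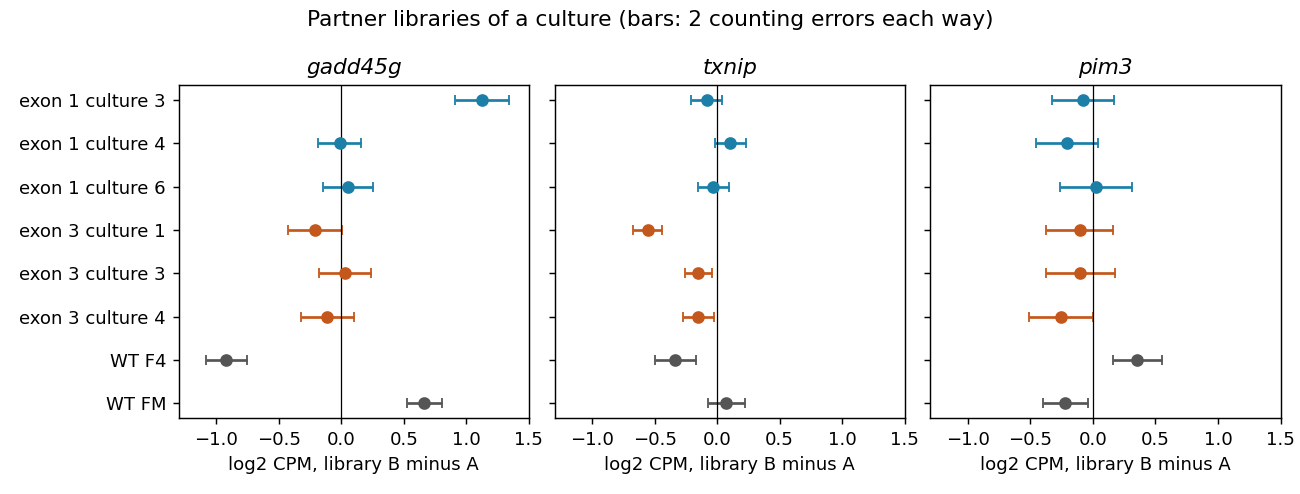
Difference in log2 CPM between libraries B and A of the 8 cultures that had both, for gadd45g, txnip and pim3; bars are 2 counting errors each way and cover counting error only. The widest differences are those of gadd45g in exon 1 mutant culture 3 (1.13), WT F4 (-0.92) and WT FM (0.66).

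Within a genotype, the 3 genes did not follow each other closely enough to pass a test. Over the 10 cultures, deviations from the genotype mean of log2 CPM gave Pearson's r = 0.45 and Spearman's rho = 0.39 for gadd45g with txnip (exact permutation within genotype, two-sided p = 0.209 and 0.293). For gadd45g with pim3, r was -0.47 and rho -0.42 (exact permutation p = 0.242 and 0.260), and for txnip with pim3, r was -0.51 and rho -0.50 (exact permutation p = 0.194 and 0.221). Adjusted over the 3 pairs, every p of r was 0.242. Without the 2 cultures farthest from the median of the first gene named in each pair, r was 0.15, -0.16 and -0.41 in that order. The cultures left out were WT FM and F9 for the pairs with gadd45g. For txnip with pim3 they were exon 3 mutant culture 3 and exon 1 mutant culture 6. WT F9 was highest for gadd45g and lowest for pim3 among WT cultures.

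None of the genes related to gadd45g by name passed the test in either mutant. Gadd45b, another GADD45 gene, stood at 151 to 166 CPM in WT, 118 to 153 CPM in exon 1 mutants and 87.5 to 112 CPM in exon 3 mutants. The exon 3 mutant cultures lay below both other groups, with a log2 fold change against WT of -0.59 ± 0.13. EdgeR's adjusted p was 0.109, while DESeq2 called gadd45b at an adjusted p of 0.00103. Of all genes, 6.87% had exon 3 mutant cultures wholly below WT and 5.04% wholly below the exon 1 mutant. DESeq2 called 3.1% of genes in the exon 3 mutant against WT. Gadd45ab averaged 93.0 ± 26.4 CPM in WT (SD, n = 4), 67.2 ± 31.1 CPM in exon 1 mutants (SD, n = 3) and 74.4 ± 22.8 CPM in exon 3 mutants (SD, n = 3), with ranges that overlapped. Gadd45aa averaged below 1 CPM in every genotype, and gadd45gb.1 had 1 count over all libraries.

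Among the relatives of txnip, arrdc1, an alpha-arrestin, averaged 10.9 ± 1.30 CPM in WT, 6.70 ± 0.611 CPM in exon 1 mutants and 9.47 ± 1.63 CPM in exon 3 mutants (SD, n = 4, 3 and 3). Its log2 fold change in the exon 1 mutant was -0.70 ± 0.16, opposite in sign to that of txnip, at edgeR's adjusted p = 0.169. Arrdc2 had the sign of txnip, at 0.35 ± 0.20 in the exon 1 and 0.29 ± 0.20 in the exon 3 mutant (edgeR's adjusted p 0.709 and 0.590). Arrdc3b stood at -0.08 ± 0.22 and 0.18 ± 0.22 in the same order (edgeR's adjusted p 0.972 and 0.763). Arrdc3, an alpha-arrestin that in mammals acts on receptor uptake, averaged 92.3 ± 16.2 CPM in WT, 91.2 ± 5.66 CPM in exon 1 mutants and 115 ± 6.01 CPM in exon 3 mutants, where edgeR's adjusted p against WT was 0.395. Of the PIM kinases, pim1 averaged 40.7 ± 10.4 CPM in WT, 30.6 ± 3.12 CPM in exon 1 mutants and 42.0 ± 12.0 CPM in exon 3 mutants, with overlapping ranges. Pim2 was near 1 CPM in every genotype.

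**Figure D4:**
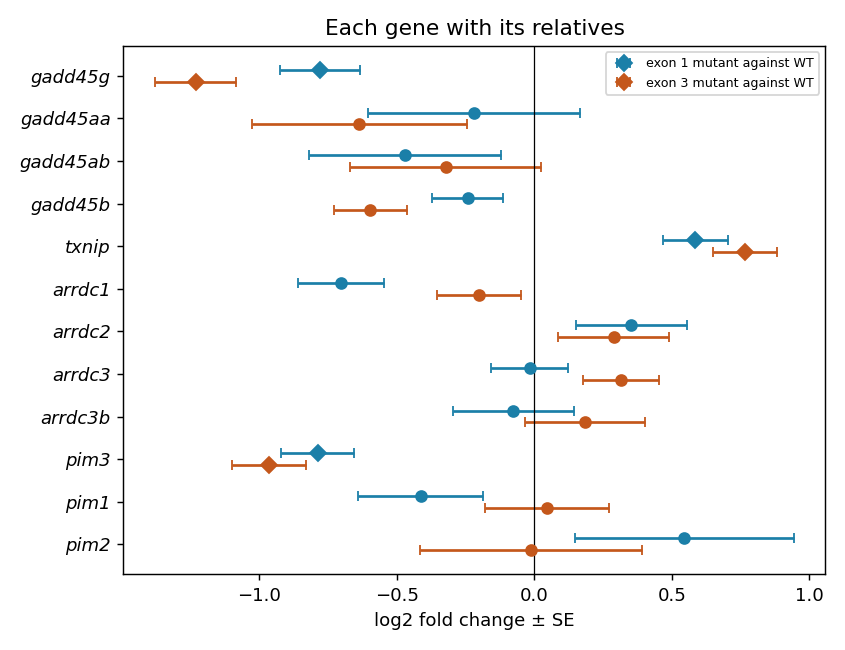
Log2 fold change with its standard error (horizontal bars) in the exon 1 mutant and the exon 3 mutant against WT for gadd45g, txnip and pim3 (diamonds) and the tested genes related to each by name (circles). The relatives run from -0.70 (arrdc1) to 0.55 (pim2) in the exon 1 mutant, and none of them passed edgeR's test in either mutant; the 3 genes themselves were chosen by their differences from WT.

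The wider pathways were read from 7 lists with 170 genes in the table, 162 of them tested and the 3 genes themselves left out. EdgeR's test called 0 of the 162 in each of the 3 comparisons, with the smallest adjusted p at 0.146 in the exon 1 mutant and 0.109 in the exon 3 mutant against WT. At an unadjusted p below 0.05 there were 21 genes, or 13.0%, in each comparison, against 8.48%, 12.3% and 8.48% of all genes. Of the 162, DESeq2 called 7 in the exon 1 mutant, all lower, 3 in the exon 3 mutant and 3 between the mutants, where it called 1.55%, 3.1% and 1.07% of all genes.

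Of 25 tested genes of the GADD45, p38 and JNK list, the median log2 fold change was -0.20 in the exon 1 mutant and 0.02 in the exon 3 mutant, beside 0.02 and 0.01 over all genes. Map3k5, the stress kinase ASK1 that thioredoxin holds inactive, averaged 19.7 CPM in WT, 16.2 CPM in exon 1 mutants and 28.4 CPM in exon 3 mutants (adjusted p = 0.257 for the exon 3 mutant against WT, edgeR), and DESeq2 called it higher in the exon 3 than in the exon 1 mutant. Dusp1, a phosphatase that switches off p38 and JNK, averaged 7.07, 3.15 and 5.80 CPM in the same order, and DESeq2 called it lower in the exon 1 mutant, where edgeR's adjusted p was 0.303. The 21 tested growth arrest and p53 genes had medians of 0.02 and 0.08. Cdkn1b, the cyclin-dependent kinase inhibitor p27, averaged 11.4 CPM in WT, 7.44 CPM in exon 1 mutants and 9.11 CPM in exon 3 mutants, and had edgeR's smallest adjusted p of all list genes in the exon 1 mutant, 0.146, where DESeq2 called it lower. Tp53inp1, a p53 target, averaged 4.74, 4.72 and 8.54 CPM in the same order (adjusted p = 0.286 for the exon 3 mutant, edgeR).

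Around txnip, the 30 tested thioredoxin and antioxidant genes had medians of 0.06 in the exon 1 mutant and -0.08 in the exon 3 mutant. At an unadjusted p below 0.05 against WT (edgeR) were 8.48% and 12.3% of all genes in these mutants. Of the 30 it was 0 in the exon 1 mutant and 1 in the exon 3 mutant. That gene was hmox1, heme oxygenase, at 10.6 CPM in WT, 11.1 CPM in exon 1 mutants and 7.06 CPM in exon 3 mutants (adjusted p = 0.212, edgeR). Txn, the thioredoxin that txnip binds in mammals, was named after its values were seen and averaged 2376, 2688 and 1912 CPM in the same order, with no difference past edgeR's test (adjusted p = 0.551 between the mutants). The methionine sulfoxide reductase gene msrab was low throughout, at 1.19, 1.43 and 1.78 CPM. The 20 tested genes of the alpha-arrestin, MondoA and glucose list had medians of -0.02 and 0.08. Of these, DESeq2 called 4 lower in the exon 1 mutant, where it called 1.55% of all genes. They were arrdc1, the glycolysis regulator pfkfb3 and the glucose transporter genes slc2a1b and slc2a3b. Pfkfb3 averaged 501 CPM in WT, 252 CPM in exon 1 mutants and 401 CPM in exon 3 mutants, and edgeR's adjusted p in the exon 1 mutant was 0.283. Slc2a1b averaged 25.1, 14.1 and 22 CPM in the same order, and slc2a3b 1.08, 0.194 and 0.503 CPM. EdgeR's adjusted p in the exon 1 mutant was 0.222 for slc2a1b and 0.225 for slc2a3b, which had only 23 counts in that mutant.

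Around pim3, the 34 tested PIM and JAK-STAT genes had medians of 0.02 in the exon 1 mutant and 0.04 in the exon 3 mutant. Ptpn6, the phosphatase SHP-1 that in mammals limits JAK signalling, averaged 4.27 ± 0.983 CPM in WT, 2.02 ± 0.778 CPM in exon 1 mutants and 1.81 ± 0.325 CPM in exon 3 mutants (SD, n = 4, 3 and 3). Its adjusted p against WT by edgeR was 0.320 in the exon 1 mutant and 0.153 in the exon 3 mutant, where DESeq2 called it lower. Ptpn11b, a copy of the phosphatase SHP-2, averaged 6.35, 5.87 and 10.3 CPM (adjusted p = 0.145 for the exon 3 mutant, edgeR), and DESeq2 called it higher in the exon 3 mutant than in WT and in the exon 1 mutant. Cish, a feedback inhibitor induced by STAT5, averaged 114, 140 and 79.6 CPM, and DESeq2 called it lower in the exon 3 mutant than in the exon 1 mutant.

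The genes whose levels most resembled each of the 3 were ranked by Pearson's r of log2(CPM + 1) over the 10 cultures, among 9728 named genes with a mean of at least 5 CPM, as a description that shares the genotype differences and libraries used to choose the 3. For gadd45g these were noa1 (r = 0.96), cox10 (0.94), nle1 (0.93), fam136a (0.91) and dnaja3 (0.90). Noa1, a GTPase of mitochondrial ribosomes, averaged 52.5 CPM in WT, 45.1 CPM in exon 1 mutants and 40.5 CPM in exon 3 mutants. For txnip they were tsc22d1, ccpg1, sgsh and dcaf8 (r = 0.95 each) and cpz (0.94). Ccpg1, a receptor for autophagy of the endoplasmic reticulum, averaged 45.6, 70.8 and 78.1 CPM in the same order, and cpz, a secreted carboxypeptidase, 165, 282 and 292 CPM. For pim3 they were ftr82 (0.96), tgfb1a and hivep3a (0.93 each), and prickle2 and ar (0.92 each). Tgfb1a, a transforming growth factor beta ligand gene, averaged 42.8, 27.1 and 24.2 CPM, and ar, the androgen receptor, 21.6, 14 and 11.0 CPM. After the genotype means were removed, r ran from 0.30 for cox10 to 0.93 for sgsh, a lysosomal sulfatase. Ranked by Spearman's rho, 2, 1 and 0 of the 5 genes of gadd45g, txnip and pim3 stayed among the first 5.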

How the data were processed

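The authors deposited whole-number counts per gene for 18 libraries; per the submitters' processing notes, the tools were edgeR 3.32.1, STAR 2.7.6a, cutadapt 3.4, FastQC 0.11.8 and Trim Galore 0.6.4, without their roles. PolyA RNA was sequenced single-end, per the labels' protocols; the genome build, annotation, strand setting and treatment of reads with several matches were not given in the sources used here. Reads shared by near-identical gene copies may therefore be split, and no sequence or coordinate is printed.

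Libraries A and B of a culture were summed. Levels are CPM, counts scaled to a common library size after TMM adjustment over cultures or over libraries. EdgeR 4.0.16 in R 4.3.3 (TMM factors, filterByExpr by genotype, robust quasi-likelihood fit with genotype as the sole term, prior count 0.125) tested 16354 of 25099 genes over 10 cultures; SE is the log2 fold change over the root of F, and p-values were Benjamini-Hochberg adjusted over all genes tested with 0.05 as the limit. The common coefficient of biological variation came to 0.248. DESeq2 and other settings were alternatives, of which 2 (WT reduced to F1 and F9, and library 3A left out) were added after seeing the data. The 2 regroupings of WT libraries, by on/off genes and by level steps, took their pairs from the libraries' own expression. The 3 genes and all lists were chosen with earlier results of these data known. Named are the 3 genes, their relatives by name, list genes past the test, the 2 per list with the smallest p in the exon 3 mutant against WT, the 5 genes most like each of the 3, and vgll3; list genes called by DESeq2 alone were named after their values were seen. Pim3 matched its RefSeq symbol (assembly NfurGRZ-RIMD1), which also names LOC identifiers; gadd45g and txnip are used as the table names them.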

Additional observations from a re-analysis of the deposited data

How the results depend on the processing

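All 201 values of the 3 genes under alternatives kept their sign. The 132 differences from WT could not reverse by leaving out cultures, as these did not overlap. In the exon 1 mutant against WT gadd45g and txnip passed the test with DESeq2 (-0.78 and 0.58) and with 18 libraries as separate samples (-0.74 and 0.62, adjusted p 0.0356 and 0.00489 by edgeR), which counts technical replicates as samples. Pim3 was chosen also by this difference and so not tested. Its values ran over all alternatives from -0.87 (both mutant cultures numbered 3 left out) to -0.68 (WT reduced to F1 and F9). Among these were -0.79 with DESeq2, -0.81 with 18 libraries and -0.86 without WT F9. Pim3 stood at -0.80 without exon 3 mutant culture 3 or without library 3A. Gadd45g in the exon 1 mutant ran over all alternatives from -0.93 (WT reduced to F1 and F9) to -0.63 (library 3A left out). With WT F1 and F9 summed as 1 culture, gadd45g, txnip and pim3 stood at -0.73, 0.61 and -0.82. Leaving out 1 culture at a time gave -0.87 to -0.67, 0.50 to 0.65 and -0.86 to -0.73 for gadd45g, txnip and pim3. For the exon 3 mutant against WT the ranges were -1.31 to -1.12, 0.65 to 0.83 and -1.07 to -0.90, and between the mutants -0.55 to -0.39, 0.08 to 0.26 and -0.28 to -0.11. Over all alternatives edgeR's and DESeq2's adjusted p ran from 0.00029 to 0.426 for gadd45g and 0.00173 to 0.602 for txnip in exon 1 mutants, and for the 3 genes from 0.115 to 0.906, 0.375 to 0.941 and 0.404 to 0.924 between the mutants.

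The number of genes called moved more. From 26 in the exon 1 mutant against WT it went to 253 with DESeq2, 342 with 18 libraries, 6 with WT libraries regrouped into the 3 sums F1+F9, F4A+FMB, F4B+FMA, 12 with F1+F4A, F9+FMB, F4B+FMA, and 14 with WT reduced to F1 and F9; without 1 culture it ran from 5 (exon 1 mutant culture 3 or 4) to 56 (exon 3 mutant culture 3). From 39 in the exon 3 mutant against WT it went to 507 with DESeq2, 567 with 18 libraries, 12 with F1 and F9 summed, 6 and 5 with these WT regroupings, 17 with the 2 genotypes alone, 25 without both cultures numbered 3 and 15 with WT reduced to F1 and F9; without 1 culture it ran from 7 (exon 3 mutant culture 1, WT F1 or WT FM) to 38 (exon 1 mutant culture 6). From 2 between the mutants it went to 174 with DESeq2, 278 with 18 libraries, 1 with the first regrouping of all WT libraries, 1 with the 2 genotypes alone and 6 without library 3A; without 1 culture it ran from 1 (exon 1 mutant culture 3 or 4) to 8 (exon 1 mutant culture 6). The cause was not tested. Of 25 values of named pathway genes, 10 passed in some alternative, counting that with 18 libraries. Dusp1, pfkfb3, slc2a1b and cish, named for their DESeq2 calls, were not among them. The share of all genes that passed in some alternative was not counted, so nothing is read from the 10.

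Cultures 3 and 4 occur in both mutants, and the labels do not say that the numbers pair them; their deviations correlated at 0.39 and -0.22. With the replicate block over these 4 cultures, 0 genes were called, as without it, and the differences between the mutants were -0.34 for gadd45g, 0.29 for txnip and -0.17 for pim3 (adjusted p 0.711, 0.731 and 0.880 by edgeR).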

Other observations

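The insulin, AKT and FoxO list and the integrated stress response list are tied to txnip and gadd45g by known regulation in mammals. Both also had 0 genes called by edgeR in each comparison. Their median log2 fold changes were 0.08 and -0.20 in the exon 1 mutant and 0.13 and 0.06 in the exon 3 mutant, beside 0.02 and 0.01 over all genes. Between the mutants the medians were 0.07 and 0.32, beside -0.01 over all genes. No list was tested as a set. Of 22 tested insulin, AKT and FoxO genes, 1 was higher and 3 lower at an unadjusted p below 0.05 in the exon 1 mutant, and 2 were higher and 1 lower in the exon 3 mutant, where 8.48% and 12.3% of all genes were at such a p; DESeq2 called 0. Foxo4, a FoxO transcription factor gene, averaged 26.4 CPM in WT, 35.4 CPM in exon 1 mutants and 37.6 CPM in exon 3 mutants (edgeR's adjusted p against WT 0.565 and 0.30). Akt3a, an AKT kinase gene, averaged 24.2, 17.9 and 17.5 CPM in the same order (adjusted p 0.475 and 0.279). Of 10 tested stress response genes, 2 were lower in the exon 1 mutant and 1 in the exon 3 mutant at an unadjusted p below 0.05, beside the same shares of all genes, 8.48% and 12.3%. Cebpb, a C/EBP transcription factor gene, averaged 16.1, 7.02 and 9.51 CPM (edgeR's adjusted p 0.277 and 0.373), and DESeq2 called it lower in the exon 1 mutant. Ddit4, an inhibitor of mTOR signalling, averaged 39.7, 35.0 and 29.0 CPM, with edgeR's adjusted p = 0.466 in the exon 3 mutant.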
